A study of Mus musculus with 9 samples.

Results

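The circadian clock genes described here are 10 genes of the molecular clock, taken by symbol from the deposited table of 54456 genes. They were Arntl, Npas2, Clock and Cry1, which textbook accounts place at or near the phase of Arntl, and Nr1d1, Nr1d2, Per1, Per2, Per3 and Dbp, which they place in the opposite phase. Of these 10 genes, 9 had counts and all 9 had enough to be tested, whereas Per3 was listed at 0 in every library. RNA was taken from mouse skin lesions named AA-like in the labels, AA being alopecia areata, an immune attack on hair follicles. Of the 9 libraries, 3 came from lesions given microneedles with IL-2 and CCL22 (loaded), 3 from lesions given empty microneedles (empty) and 3 from lesions given no device (untreated). A microneedle device presses short needles into the skin to release what they hold. IL-2 makes T cells grow, and CCL22 is a chemokine that draws cells with the receptor CCR4. No strain, age or time of day is given in the labels used here, nor whether libraries of 1 group stem from different mice. Since clock genes change over the day, a difference in the time of collection cannot be told apart from one between treatments in any comparison below. The p-values therefore take in no more than the spread among these libraries, part or all of which may be technical.

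The clock is a feedback loop of transcription that runs in nearly every cell, skin cells among them. BMAL1, the product of Arntl, pairs with CLOCK or its relative NPAS2 and binds E-box motifs to switch on Per, Cry, Nr1d and Dbp genes; PER and CRY proteins then hold the pair back, and the NR1D (REV-ERB) receptors repress Arntl through a motif called the RRE. DBP binds a further motif, the D-box, as in the Per genes. In skin the clock is known to time cell division in the epidermis and to differ with the stage of the hair cycle. In a tissue whose clock moves to another phase, Arntl and Npas2 are therefore expected to go one way and Nr1d1, Per and Dbp genes the other, and the libraries were compared with that division in view.

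The motifs of this loop were looked up in promoter windows of the members, 250 bases before to 50 after each annotated start, from RefSeq on build GRCm38.p6. A window was held for 9 of the 10 members, 13 windows in all. Both strands were searched for the E-box CACGTG, the D-box TTATGTAA or TTACGTAA, the RRE core TAGGTCA or TGGGTCA and the cyclic AMP response element TGACGTCA, and no 2 matches overlapped. The 3 members with an E-box or RRE match that were measured, and Per3 with its D-boxes, are printed to show the letters through which the loop is known to act, with matches in capitals.
Arntl, chr7:113207261-113207560, plus strand, GRCm38.p6, with an RRE core that begins 30 bases after the start: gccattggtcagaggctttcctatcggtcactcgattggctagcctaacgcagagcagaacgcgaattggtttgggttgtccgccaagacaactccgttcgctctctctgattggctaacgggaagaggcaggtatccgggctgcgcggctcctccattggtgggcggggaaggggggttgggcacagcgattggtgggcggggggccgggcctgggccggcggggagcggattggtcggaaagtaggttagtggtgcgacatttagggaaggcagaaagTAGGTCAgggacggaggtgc
Cry1, chr10:85185005-85185304, minus strand, GRCm38.p6, with an E-box that begins 60 bases before the start: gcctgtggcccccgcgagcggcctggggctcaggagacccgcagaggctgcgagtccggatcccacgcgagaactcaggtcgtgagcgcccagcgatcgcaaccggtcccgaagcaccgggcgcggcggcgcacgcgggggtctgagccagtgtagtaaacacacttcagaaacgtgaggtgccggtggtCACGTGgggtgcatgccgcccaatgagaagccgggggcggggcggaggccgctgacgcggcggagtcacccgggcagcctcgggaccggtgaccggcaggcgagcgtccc
Per1, chr11:69098699-69098998, plus strand, GRCm38.p6, with an E-box that begins 166 bases before the start: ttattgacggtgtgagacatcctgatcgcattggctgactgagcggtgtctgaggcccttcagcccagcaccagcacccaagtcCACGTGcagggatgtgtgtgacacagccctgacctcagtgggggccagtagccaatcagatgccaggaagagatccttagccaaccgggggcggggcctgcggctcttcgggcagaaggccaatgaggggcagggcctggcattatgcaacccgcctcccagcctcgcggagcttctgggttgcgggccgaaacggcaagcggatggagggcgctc
Per3, chr4:151044616-151044915, minus strand, GRCm38.p6, with D-boxes that begin 205 and 158 bases before the start: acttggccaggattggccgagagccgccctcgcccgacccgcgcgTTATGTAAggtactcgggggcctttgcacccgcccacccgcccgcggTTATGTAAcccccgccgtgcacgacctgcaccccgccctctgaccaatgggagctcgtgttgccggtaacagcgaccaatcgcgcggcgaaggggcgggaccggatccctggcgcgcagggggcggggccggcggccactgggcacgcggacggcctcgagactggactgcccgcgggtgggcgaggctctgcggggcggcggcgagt
An E-box stood in 2 members, against 8.09% of all 27025 genes with a window, an RRE core in 1 member, against 7.35% of genes, and a D-box in 1 member, against 1.23% of genes. The response element was in no member and in 2.03% of genes. Npas2, Clock, Nr1d1, Nr1d2 and Dbp had no match in their windows, which says only that these letters are not in these stretches.

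Per3, a period gene, lies on chromosome 4 from 151088109 to 151129122 of mm39 on the minus strand. Its whole span, 100% of its 41014 bases, lies inside that of Camta1, which runs from 151001779 to 151946333 on the same strand and had 7552 to 11615 counts per library. In the deposited table all 6185 genes that lie wholly inside another gene of their own strand were at 0 in all 9 libraries, 341 genes that RefSeq calls protein coding among them. Of the 5960 genes that lie wholly inside a gene of the opposite strand only, 13.9% were at 0, and of the 42232 genes inside no other gene 11.2% were at 0. The 0 of Per3 is therefore the value that this table gives to every gene in such a position, and no level of Per3 is given here.

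**Figure D1:**
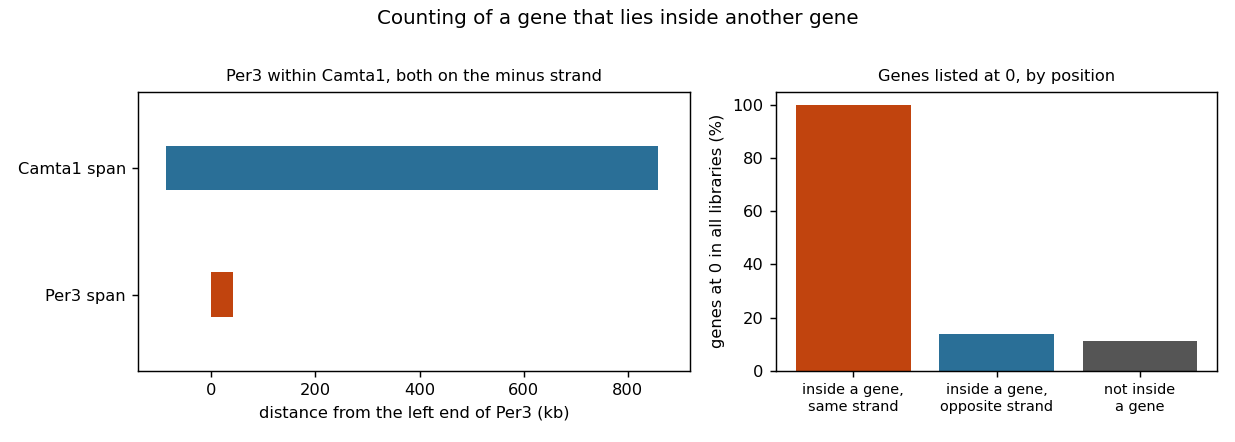
Left, the spans of Per3 and Camta1 in kb from the left end of Per3, drawn to scale; right, the percent of genes at 0 in all 9 libraries by their position relative to other genes. Per3 lies wholly inside Camta1 on the same strand, and 100% of the 6185 genes in such a position were at 0, against 13.9% and 11.2% in the other positions.

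Counts were split by strand, as the counts of genes inside opposite-strand genes show, which bears on 2 further members. Nr1d1 shares 1075 bases, 14.5% of its span, with Thra on the other strand, and Dbp shares 737 bases, 14.4% of its span, with Sphk2 on the other strand. Intron reads were part of the counts, because for 99.85% of genes the length given in the table is the distance between the ends of the gene. Per kb of span, the mean level over the 9 libraries ran in the order Nr1d1 with 8.95 CPM per kb, Per1 with 4.36, Dbp with 3.87, Nr1d2 with 1.38, Clock with 0.755, Arntl with 0.394, Cry1 with 0.332, Per2 with 0.199 and Npas2 with 0.0286. CPM is the usual count scaled by library size, with sizes adjusted by TMM. The spans that set this scale run from 5116 bases for Dbp to 169506 bases for Npas2, and the shares of exons and introns in the counts were not measured.

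Total counts ran from 85962714 to 96740589 per library. Epidermal keratinocyte genes, 10 of 10 of which were tested, summed to 37000 to 39000 CPM in loaded, 56300 to 57600 CPM in empty and 50900 to 52900 CPM in untreated libraries, with none at 0, so the skin label held. The tissue lists fixed for this report differed between groups as well. Skeletal muscle genes (15 genes, none at 0) summed to 9280 to 9950 CPM in loaded, 12900 to 15100 CPM in empty and 10400 to 10800 CPM in untreated libraries. Hair matrix genes (12 genes, none at 0) summed to 15500 to 16500, 8770 to 9990 and 13800 to 14000 CPM in the same order of groups, adipocyte genes (8 genes, none at 0) to 938 to 984, 470 to 520 and 818 to 904 CPM, and leukocyte genes (11 genes, of which Itgam had 0 to 4 counts per library and was not tested) to 296 to 326, 476 to 501 and 408 to 421 CPM. In loaded against untreated skin 11 hair matrix genes rose and 0 fell, 6 adipocyte genes rose and 0 fell, 1 keratinocyte gene rose and 9 fell, and 10 leukocyte genes fell. Of all tested genes, 19% were higher and 23.3% lower in that comparison. In whole skin, fewer cells of a type and less RNA per cell cannot be told apart. The part of these tissues in the clock values was not tested. Skeletal muscle was also entered as a covariate. Its sums did not overlap between groups, so muscle and group cannot be fully told apart in that model.

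Arntl encodes BMAL1, the partner without which the loop does not run. It stood at 38.1, 37.7 and 39.1 CPM in the loaded libraries, at 50.2, 48.3 and 51.8 CPM in the empty libraries and at 37.3, 37.5 and 38.0 CPM in the untreated libraries. All 3 empty libraries were above the other 6, while loaded and untreated libraries overlapped. Arntl was 1.33-fold higher in empty than in untreated skin (log2 fold change 0.41, SE 0.0352, edgeR adjusted p = 6.77e-11). Loaded skin was at a log2 fold change of 0.03 from untreated skin (SE 0.0357, edgeR adjusted p = 0.588) and of -0.39 from empty skin (SE 0.035, edgeR adjusted p = 3.36e-10). With library size alone as the scaling, Arntl passed the test in loaded against untreated skin as well (log2 fold change 0.16, edgeR adjusted p = 0.000726), a scaling that also moved the median of all tested genes from a log2 fold change of -0.01 to 0.12.

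Npas2, whose protein can take the place of CLOCK, showed the largest difference of the 9 measured members in empty against untreated skin. Its level was 4.26, 4.80 and 4.11 CPM in loaded, 5.91, 6.61 and 7.11 CPM in empty and 3.21, 3.71 and 3.96 CPM in untreated libraries. The 3 groups did not overlap, with empty libraries highest and untreated libraries lowest. Npas2 rose 1.80-fold in empty against untreated skin (log2 fold change 0.85, SE 0.0886, edgeR adjusted p = 3.93e-09), and of the 16806 genes that averaged 1 CPM or more, 3.05% had a larger absolute log2 fold change. It was 1.21-fold higher in loaded than in untreated skin (log2 fold change 0.27, SE 0.0926, edgeR adjusted p = 0.0177). That call was lost without loaded replicate 2 (0.20, edgeR adjusted p = 0.129) or without untreated replicate 1 (0.19, edgeR adjusted p = 0.122).

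Clock, which encodes the usual partner of BMAL1, was lower in loaded than in untreated skin, where Npas2 rose and Arntl did not pass, and fell with both of them in loaded against empty skin. Its libraries stood at 59.4, 60.6 and 60.5 CPM in loaded, 77.3, 70.6 and 77.9 CPM in empty and 84.3, 77.9 and 76.7 CPM in untreated skin. The loaded libraries were lowest, and the empty and untreated libraries overlapped. Clock fell in loaded skin, to a log2 fold change of -0.40 against untreated skin (SE 0.039, edgeR adjusted p = 3.68e-09) and of -0.32 against empty skin (SE 0.0389, edgeR adjusted p = 1.19e-07). Between empty and untreated skin the log2 fold change was -0.08 (SE 0.0386, edgeR adjusted p = 0.0873), which passed without untreated replicate 3 (-0.11, edgeR adjusted p = 0.0324) and was 0.02 with library size alone as the scaling. The count ratio of Npas2 to Clock within a library, which no scaling changes, was 0.0730 ± 0.0057 in loaded, 0.0871 ± 0.00933 in empty and 0.0458 ± 0.00699 in untreated skin (mean ± SD, n = 3 libraries each).

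Cry1 encodes a repressor of the pair and peaks later than the Per genes and before Arntl. It had 19.3, 18.2 and 19.5 CPM in loaded, 17.5, 17.7 and 17.0 CPM in empty and 16.8, 16.4 and 17.2 CPM in untreated libraries. The loaded libraries were highest, by a small margin, and empty and untreated libraries overlapped. Between empty and untreated skin the log2 fold change was 0.05 (SE 0.0461, edgeR adjusted p = 0.422), which passed with upper-quartile scaling (0.12, edgeR adjusted p = 0.0344) and with library size alone (0.15, edgeR adjusted p = 0.00777). Cry1 rose 1.13-fold in loaded against untreated skin (log2 fold change 0.18, SE 0.046, edgeR adjusted p = 0.00222), and 50.5% of genes that averaged 1 CPM or more had a larger absolute difference. Against empty skin its log2 fold change of 0.13 (edgeR adjusted p = 0.0215) was lost with DESeq2 size factors or upper-quartile scaling (edgeR adjusted p = 0.0576 and 0.177), with no filter (0.0747), in DESeq2's Wald test (adjusted p of 0.0723) and without loaded replicate 1, loaded replicate 3 or empty replicate 3 (edgeR adjusted p = 0.0771, 0.0876 and 0.193).

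Of the opposite phase, Nr1d1 encodes REV-ERB alpha, the receptor that represses Arntl. It stood at 57.6, 59.1 and 61.3 CPM in loaded, 79.3, 80.6 and 80.2 CPM in empty and 55.5, 62.5 and 60.4 CPM in untreated libraries. The empty libraries were above all others and the other groups overlapped, the same order of groups as for Arntl. Nr1d1 rose 1.35-fold in empty against untreated skin (log2 fold change 0.43, SE 0.0372, edgeR adjusted p = 1.12e-10). Loaded skin was at a log2 fold change of -0.0022 from untreated skin (SE 0.0376, edgeR adjusted p = 0.972) and of -0.43 from empty skin (SE 0.0371, edgeR adjusted p = 1.31e-10). Thra, the gene it overlaps, was at a log2 fold change of 0.21 in loaded against untreated, 0.18 in empty against untreated and 0.03 in loaded against empty skin.

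Nr1d2, the gene of the related receptor REV-ERB beta, did not share that pattern. It had 46.1, 45.8 and 46.8 CPM in loaded, 47.4, 46.3 and 45.6 CPM in empty and 53.3, 53.2 and 52.5 CPM in untreated libraries. The untreated libraries were highest and the device groups overlapped. Nr1d2 fell with both devices against untreated skin, at log2 fold changes of -0.20 with the loaded device (SE 0.0326, edgeR adjusted p = 1.23e-05) and -0.19 with the empty device (SE 0.0326, edgeR adjusted p = 1.35e-05). Those comparisons share the untreated libraries. With library size alone as the scaling the loaded value was -0.06 (edgeR adjusted p = 0.117). Between the devices the log2 fold change was -0.0063 (SE 0.0326, edgeR adjusted p = 0.903). The count ratio of Nr1d1 to Nr1d2 was 1.28 ± 0.0306 in loaded, 1.72 ± 0.0455 in empty and 1.12 ± 0.0704 in untreated skin (mean ± SD, n = 3 libraries each).

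Per1, a period gene that also answers to glucocorticoids and to cyclic AMP, was higher with both devices. Its libraries stood at 65.8, 63.4 and 62.9 CPM in loaded, 74.4, 75.4 and 73.8 CPM in empty and 51.4, 55.8 and 55.6 CPM in untreated skin. No groups overlapped. Per1 rose 1.18-fold in loaded (log2 fold change 0.24, SE 0.0349, edgeR adjusted p = 2.11e-06) and 1.37-fold in empty skin (log2 fold change 0.46, SE 0.0347, edgeR adjusted p = 6.5e-12), each against untreated skin. Loaded skin was lower than empty skin at a log2 fold change of -0.22 (SE 0.0343, edgeR adjusted p = 5.02e-06).

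Per2, whose product works with that of Per1 in the repressor complex, went the other way with the empty device. It had 10.8, 10.8 and 10.1 CPM in loaded, 6.14, 7.05 and 6.97 CPM in empty and 8.29, 8.79 and 8.71 CPM in untreated libraries. Loaded libraries were highest, empty libraries lowest and no groups overlapped. Per2 was 1.57-fold higher in loaded than in empty skin (log2 fold change 0.65, SE 0.0634, edgeR adjusted p = 1.37e-09), the largest difference of a measured member in that comparison, and 6.82% of genes that averaged 1 CPM or more differed by more. Against untreated skin it rose 1.23-fold in loaded (log2 fold change 0.29, SE 0.0626, edgeR adjusted p = 0.000308) and fell in empty skin (log2 fold change -0.35, SE 0.065, edgeR adjusted p = 3.73e-05). The count ratio of Per1 to Per2 was 6.11, 5.88 and 6.24 in loaded, 12.1, 10.7 and 10.6 in empty and 6.20, 6.35 and 6.38 in untreated libraries. It was higher in every empty library than in the other 6.

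Dbp encodes the transcription factor through which the clock drives many output genes, and is among the most strongly rhythmic clock transcripts. It stood at 18.5, 20.1 and 20.2 CPM in loaded, 17.4, 17.8 and 16.6 CPM in empty and 21.1, 23.6 and 22.9 CPM in untreated libraries. Untreated libraries were highest, empty libraries lowest and no groups overlapped. Dbp fell in empty against untreated skin at a log2 fold change of -0.39 (SE 0.0498, edgeR adjusted p = 1.75e-07) and in loaded against untreated skin at -0.20 (SE 0.0495, edgeR adjusted p = 0.00145). The loaded value was -0.07 with library size alone as the scaling (edgeR adjusted p = 0.291). Against empty skin, loaded skin was higher at 0.18 (SE 0.05, edgeR adjusted p = 0.00339), a call lost without empty replicate 3 (0.13, edgeR adjusted p = 0.0622). Sphk2, the gene that Dbp overlaps, was at log2 fold changes of 0.39 in empty against untreated and -0.37 in loaded against empty skin. In loaded against untreated skin, where Dbp fell, Sphk2 was at 0.025 (edgeR adjusted p = 0.602).

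**Figure D2:**
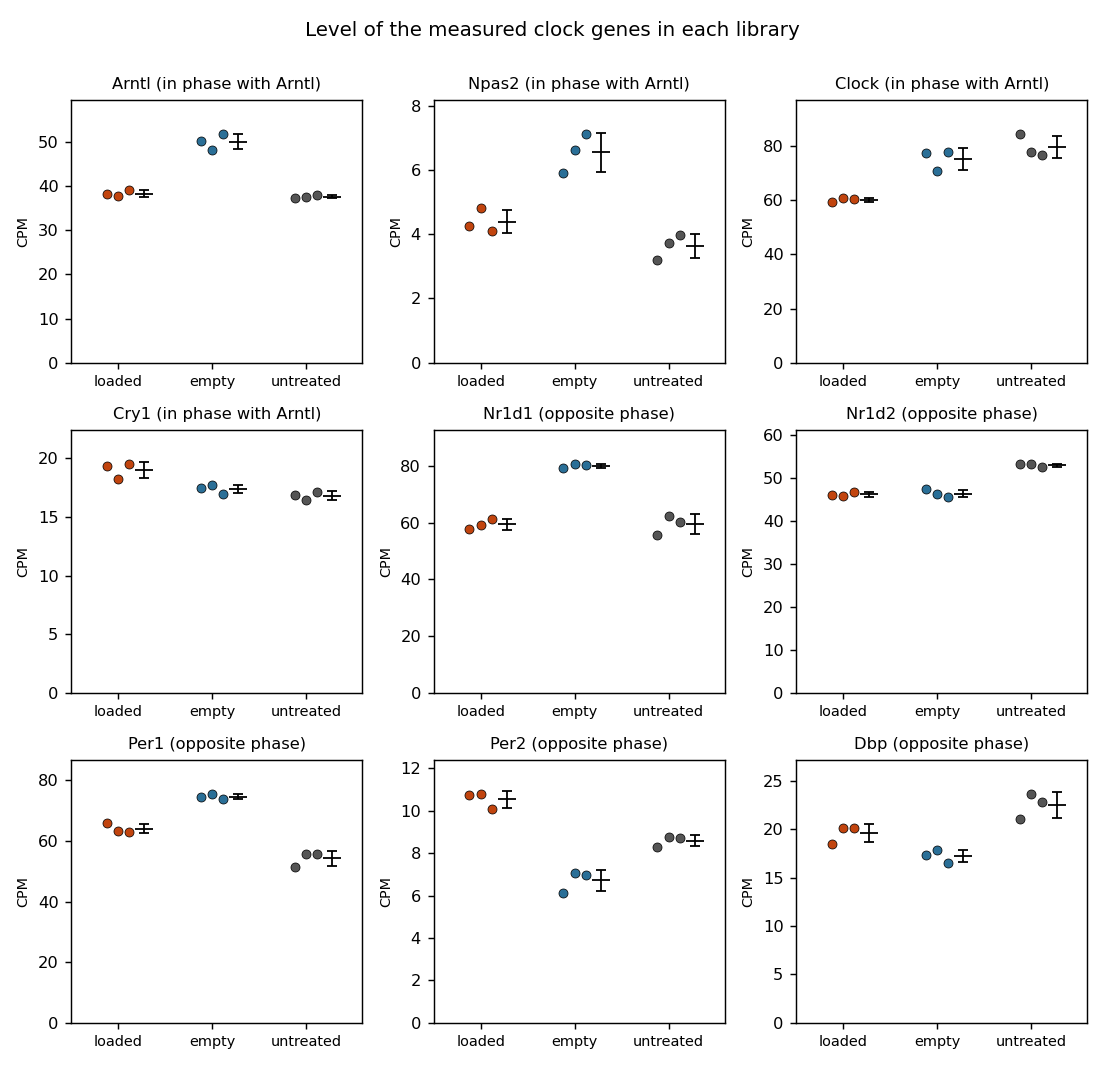
Level of each of the 9 measured clock genes in CPM (axis from 0) in the 3 loaded, 3 empty and 3 untreated libraries; points are libraries, and the bar beside them is the mean ± SD. Arntl and Nr1d1 share an order of groups with empty libraries above all others (48.3 to 51.8 and 79.3 to 80.6 CPM), while Per2 and Dbp were lowest in empty libraries (6.14 to 7.05 and 16.6 to 17.8 CPM).

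The members were next counted by phase. In empty against untreated skin, Arntl and Npas2 rose and Clock and Cry1 did not pass, for a median log2 fold change of 0.23 over the 4 genes in phase with Arntl. Of the opposite phase, 2 genes rose (Nr1d1 and Per1) and 3 fell (Nr1d2, Per2 and Dbp), with a median of -0.19 over the 5 measured genes, against -0.02 over all 26081 tested genes. In loaded against untreated skin, 2 genes in phase with Arntl rose (Npas2 and Cry1) and 1 fell (Clock), while of the opposite phase Per1 and Per2 rose and Nr1d2 and Dbp fell; the medians were 0.10 and -0.002, against -0.01 over all tested genes. In loaded against empty skin, Arntl, Npas2 and Clock fell and Cry1 rose, and of the opposite phase Per2 and Dbp rose and Nr1d1 and Per1 fell; the medians were -0.355 and -0.006, against 0.015 over all tested genes. Opposite-phase genes went in both directions in each of the 3 comparisons.

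In all, 7, 7 and 8 of the 9 measured members passed the test in loaded against untreated, empty against untreated and loaded against empty skin, where 42.3%, 48.3% and 41.4% of all tested genes passed. By direction, 4, 4 and 3 members were higher, with 19%, 20.2% and 22.9% of all tested genes higher, and 3, 3 and 5 were lower, with 23.3%, 28.1% and 18.5% of all tested genes lower. The members are well counted, and among the 12576 genes with a mean level of at least that of Npas2 the shares that passed were 67%, 73.9% and 64.6%. Of all tested genes, 4950 were higher and 6074 lower in loaded against untreated skin, and with library size alone as the scaling 8487 and 3973. In empty against untreated skin 5258 were higher and 7339 lower, and with upper-quartile scaling 6902 and 6109, with library size alone 7677 and 5577. In loaded against empty skin 5971 were higher and 4834 lower, and with upper-quartile scaling 4782 and 5982. The groups did not overlap for 7, 7 and 8 members, and for 52.7%, 54.6% and 50.8% of all tested genes. The number of members called was near the share among genes counted as well in both comparisons with untreated skin. Between the devices 8 of 9 lay above the 64.6% of such genes, and no test was made on that difference. The members are described here by which of them moved and how far. Of genes that averaged 1 CPM or more, 24.5% differed by more than Arntl did in empty against untreated skin. There the shares were 23% for Nr1d1, 20.5% for Per1, 27.4% for Dbp, 30.9% for Per2 and 56.5% for Nr1d2.

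**Figure D3:**
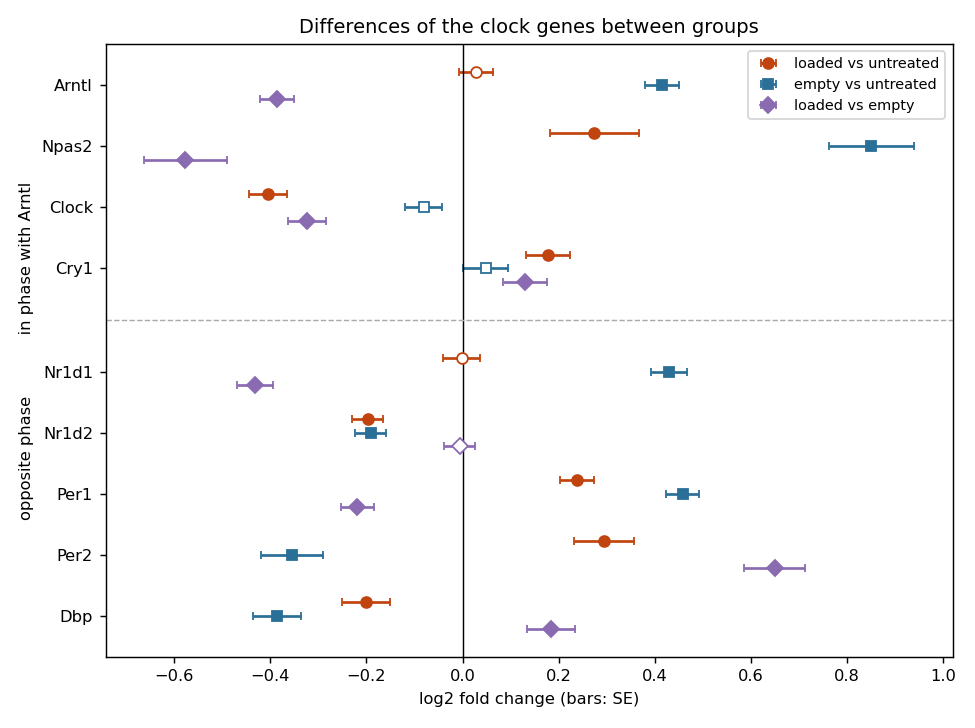
Log2 fold change of each measured clock gene (x axis; bars are SE) for loaded against untreated, empty against untreated and loaded against empty skin, with filled symbols for edgeR adjusted p under 0.05; genes in phase with Arntl are above the dashed line. Opposite-phase genes lie on both sides of 0 in each comparison, with Per1 at 0.46 and Dbp at -0.39 in empty against untreated skin.

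The distance between the phases was also read within each library, as the mean log2 CPM of Arntl, Npas2, Clock and Cry1 minus that of the 5 measured genes of opposite phase. It was -0.63, -0.63 and -0.64 in loaded, -0.31, -0.36 and -0.25 in empty and -0.59, -0.68 and -0.61 in untreated libraries. The empty libraries stood apart from the other 6, and loaded and untreated libraries overlapped. The difference between group means was 0.32 for empty against untreated, -0.32 for loaded against empty and -0.01 for loaded against untreated skin. These values depended on how members were combined: with the median in place of the mean they were 0.40 for empty against untreated, -0.12 for loaded against empty and 0.28 for loaded against untreated skin. It describes the chosen members, and no test was made on it.

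The count ratio of Arntl to Per2 was 3.54, 3.49 and 3.88 in loaded, 8.18, 6.85 and 7.43 in empty and 4.50, 4.26 and 4.37 in untreated libraries, and that of Arntl to Dbp was 2.06, 1.87 and 1.94, then 2.89, 2.71 and 3.13, then 1.77, 1.58 and 1.66 in the same order of groups. Both ratios were highest in every empty library. The ratio of Arntl to Nr1d1 was 0.646 ± 0.0141 in loaded, 0.626 ± 0.0243 in empty and 0.634 ± 0.0359 in untreated skin (mean ± SD, n = 3 libraries each), so its group means differed by less than the SD within untreated libraries. Among the 36 pairs of measured members, Arntl and Nr1d1 had the most similar pattern over the 9 libraries, with a root mean square difference of 0.053 between their mean-centred log2 CPM, followed by Arntl and Per1 with 0.103 and by Nr1d2 and Dbp with 0.107. Arntl and Npas2, placed in the same phase, differed by 0.211.

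**Figure D4:**
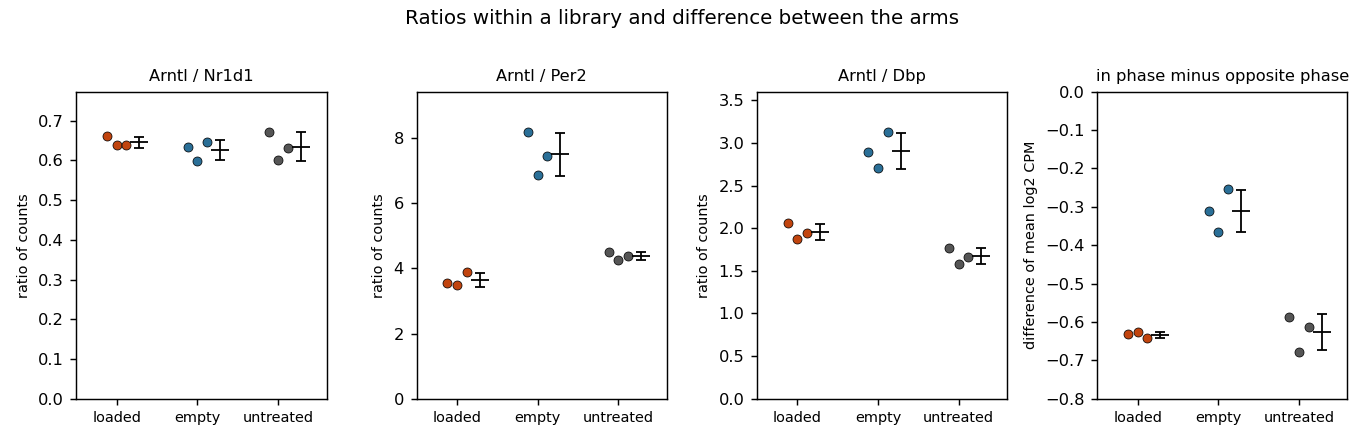
Count ratios of Arntl to Nr1d1, Per2 and Dbp within each library (axes from 0), and the mean log2 CPM of the genes in phase with Arntl minus that of the opposite phase; points are libraries of the loaded, empty and untreated groups, bars the mean ± SD. The ratio to Nr1d1 lies between 0.599 and 0.672 in all 9 libraries, while the ratio to Per2 is 6.85 to 8.18 in empty libraries and 3.49 to 4.50 in the others.

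Other genes of the loop were read from a list of 17, all tested. In empty against untreated skin 8 rose and 2 fell (median log2 fold change 0.09), in loaded against untreated skin 6 rose and 2 fell (median 0.10), and in loaded against empty skin 3 rose and 5 fell (median 0.03). Of all tested genes, 20.2%, 19% and 22.9% were higher and 28.1%, 23.3% and 18.5% lower in these comparisons. Among genes with a mean level of at least that of Npas2, 73.9%, 67% and 64.6% passed in the same order. In empty against untreated skin the genes named by p were Bhlhe40, which encodes a repressor at E-boxes (0.31, edgeR adjusted p = 2.63e-09), Hlf, a relative of Dbp (0.38, edgeR adjusted p = 8.62e-09) and Timeless (-0.30, edgeR adjusted p = 1.8e-05). Hlf thus rose where Dbp fell. In loaded against empty skin Bhlhe40 fell (-0.52, edgeR adjusted p = 2.06e-13), as did Rora, the gene of an activator at the RRE (-0.45, edgeR adjusted p = 2.86e-11), while Nfil3, whose product represses at D-boxes, rose (0.49, edgeR adjusted p = 8.94e-11). In loaded against untreated skin Rora fell (-0.28, edgeR adjusted p = 3.64e-07) and Bhlhe40 fell (-0.20, edgeR adjusted p = 9.12e-06), while Nfil3 (0.31, edgeR adjusted p = 5.53e-07) and Csnk1d, the gene of a kinase of PER proteins (0.23, edgeR adjusted p = 1.65e-06), rose. With library size alone as the scaling 13 of the 17 rose and 1 fell in that comparison, 1 fell in empty against untreated skin and 5 rose in loaded against empty skin. With that scaling 8487 of all 26081 tested genes were higher and 3973 lower in loaded against untreated skin. It gave 5577 lower in empty against untreated and 6844 higher in loaded against empty skin. With the muscle genes as a covariate, 2 of the 17 rose in loaded against untreated skin, by edgeR. In that model 5 of the 17 rose and 0 fell in empty against untreated skin, and 0 rose in loaded against empty skin. Of all tested genes, 7.83%, 11% and 2.8% were higher in that model, in the same order, and 17.7% lower in empty against untreated skin. In empty against untreated skin 5 of the 17 rose without empty replicate 1, and 1 fell without empty replicate 3.

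Of 9 genes known as clock outputs, all tested, 5 rose and 2 fell in empty against untreated skin (median 0.10), 4 rose and 1 fell in loaded against untreated skin (median 0.07), and 4 rose and 3 fell in loaded against empty skin (median -0.03). Of all tested genes, 20.2%, 19% and 22.9% were higher and 28.1%, 23.3% and 18.5% lower in these comparisons. With the muscle genes as a covariate, 2 of these outputs rose in loaded against untreated skin and 1 fell in empty against untreated skin. In loaded against empty skin 1 output rose and 1 fell in that model. There 7.83% of all tested genes were higher in loaded against untreated and 17.7% lower in empty against untreated skin. In loaded against empty skin 2.8% were higher and 3.53% lower. Por, which encodes the electron donor of cytochrome P450 enzymes, stood at 100 ± 2.21 CPM in loaded, 117 ± 3.24 CPM in empty and 89.4 ± 2.7 CPM in untreated skin (SD, n = 3 libraries each). Nampt, which encodes an enzyme of NAD synthesis, stood at 65.9 ± 1.24 CPM in loaded, 59.6 ± 2.34 CPM in empty and 78.7 ± 2.71 CPM in untreated skin. Por rose and Nampt fell with both devices, with log2 fold changes against untreated skin of 0.16 and -0.26 for the loaded device (edgeR adjusted p of 0.000214 and 6.59e-07) and 0.39 and -0.40 for the empty device (edgeR adjusted p of 7.25e-11 and 9.73e-11). Usp2, which encodes a deubiquitinase, rose in empty against untreated skin (0.28, edgeR adjusted p = 3.22e-08), as did Pim3, a kinase gene (0.27, edgeR adjusted p = 1.63e-07). In loaded against untreated skin Pim3 (0.23, edgeR adjusted p = 3.1e-06) and Cdkn1a, a cell cycle inhibitor gene (0.19, edgeR adjusted p = 1.58e-05), rose. Between the devices Por (-0.23) and Usp2 (-0.23) were lower and Tspan4 (0.29) and Nampt (0.15) higher in loaded skin, all with an edgeR adjusted p of at most 0.00103.

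Per1 answers to signals other than the clock, and 2 lists of such targets were read beside it. Over all tested genes, 19% were higher and 23.3% lower with the loaded device, and 20.2% and 28.1% with the empty device. Immediate-early genes rose in 9 of 12 cases with 0 lower in loaded against untreated skin (median log2 fold change 0.225) and in 9 cases with 1 lower in empty against untreated skin (median 0.198). Fos, an immediate-early transcription factor gene, was at 1.03 and 0.99 in these comparisons. Their summed level was 816 to 829 CPM in loaded, 808 to 844 CPM in empty and 686 to 711 CPM in untreated libraries. Glucocorticoid-responsive genes, a list of 10 that includes Per1, rose in 4 and fell in 4 cases with the loaded device (median 0.01) and rose in 6 and fell in 3 with the empty device (median 0.18). The summed level of this list was 860 to 874 CPM in loaded, 863 to 878 CPM in empty and 940 to 973 CPM in untreated libraries. Its members did not move as 1. Tsc22d3, a target of the glucocorticoid receptor, was at a log2 fold change of -0.21 with the loaded and 0.19 with the empty device. Fkbp5 was at 0.22 and 0.26 and Mt2 at -0.56 and -1.05 in the same order. The part of these responses in the level of Per1 was not tested.

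Muscle genes moved in the same comparisons: 12 of 15 rose and 1 fell in empty against untreated skin, 1 rose and 12 fell in loaded against untreated skin, and 1 rose and 13 fell in loaded against empty skin. Of all tested genes, 20.2%, 19% and 22.9% were higher and 28.1%, 23.3% and 18.5% lower in this order. With library size alone as the scaling, 2 muscle genes rose and 6 fell in loaded against untreated skin. Of all 26081 tested genes, 8487 were higher and 3973 lower there. When a score of the muscle genes was added to the model, the calls of Arntl, Npas2, Nr1d1, Per1, Per2 and Dbp in empty against untreated skin were kept, and that of Nr1d2 was lost (-0.16, edgeR adjusted p = 0.0589). In loaded against untreated skin those of Cry1 (0.13, SE 0.0789, edgeR adjusted p = 0.266) and Dbp (-0.21, SE 0.0872, edgeR adjusted p = 0.0917) were lost, the value of Dbp being as large as without the covariate and its SE larger. The share of all tested genes that passed in this model was 21.2% in loaded against untreated, 28.8% in empty against untreated and 6.33% in loaded against empty skin. By direction, 7.83%, 11% and 2.8% of all tested genes were higher and 13.4%, 17.7% and 3.53% lower in these comparisons. Between the devices, where 10805 genes passed without the covariate and 1650 with it, 1 of 9 members was called, namely Per2, higher in loaded skin. There the log2 fold changes were -0.28 for Arntl (SE 0.111, edgeR adjusted p = 0.162) and -0.20 for Npas2 (SE 0.257, edgeR adjusted p = 0.763). They were -0.34 for Nr1d1 (SE 0.118, edgeR adjusted p = 0.0912) and -0.30 for Per1 (SE 0.11, edgeR adjusted p = 0.108). Clock was at -0.225 (SE 0.123), Cry1 at 0.03 (SE 0.144) and Dbp at 0.17 (SE 0.161). These SE were larger than without the covariate, where they were 0.035 for Arntl and 0.0371 for Nr1d1. The part of muscle in these values was not tested.

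Genes that share a pattern with a member were picked by the root mean square difference of mean-centred log2 CPM over the 9 libraries, among 14202 named genes that averaged 1 CPM or more and are no members. Those most like Arntl were Clip1 (0.026), Trim47 (0.029), Slc26a2 (0.030), Nod1 (0.031) and Tmem170b (0.031). Clip1 averaged 250 CPM in loaded, 322 CPM in empty and 242 CPM in untreated skin. Those most like Dbp were F2r (0.046), Bgn (0.050), Myg1 (0.050), Tbcd (0.052) and M6pr (0.054). F2r averaged 22.6 CPM in loaded, 19.3 CPM in empty and 25.2 CPM in untreated skin. With members left out and 10 of 14202 genes named, this pick cannot show whether clock genes share these patterns.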

How the data were processed

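The 9 libraries hold polyadenylated RNA of mouse skin. HISAT2, featureCounts and mm39 are named in the submitters' processing notes, without versions, and the sources used here give neither the annotation nor the strand setting. The deposited values are raw counts for each gene, per the file headers, with nothing normalized.

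Treatment labels set the groups. The filterByExpr step of edgeR 4.0.16 in R 4.3.3 (minimum count 10, minimum total 15) kept 26081 of 54456 genes. After TMM scaling, edgeR's robust quasi-likelihood test was fitted to all 9 libraries with 1 coefficient per group, at a common biological coefficient of variation of 0.039. Benjamini-Hochberg adjustment ran over every tested gene, and a gene was called under 0.05. Log2 CPM used a prior count of 2. Pairs of libraries within a group differed by 1.82 to 3.44 times counting noise, so none was counted as a copy.

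The members and lists were chosen with earlier results of these data known. The text names all members, the 4 called genes with the smallest p in each clock list (1 item is not reported here), and the 5 genes most like Arntl and Dbp; Fos, Tsc22d3, Thra, Sphk2 and Camta1 were named after their values were seen. The difference between the phases leaves out Per3. The steps were tested on simulated counts. Alternatives were other scalings, filters and tests (DESeq2 1.42.0, limma-voom 3.58.1), a fit of 2 groups only, the replicate number as a block, a muscle covariate and leaving out each library. Promoters are from RefSeq, build GRCm38.p6, and were not joined to mm39 coordinates.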

Additional observations from a re-analysis of the deposited data

How the results depend on the processing

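Of the 540 log2 fold changes recomputed over 20 alternatives for 9 members and 3 comparisons, 498 kept their direction and side of the threshold, 22 lost their call, 4 gained one and 16 changed sign, each of the last where the member had not passed by the edgeR test as reported. For Nr1d1 in loaded against untreated skin the sign changed to 0.0117 with DESeq2 size factors and by the DESeq2 Wald test, 0.0168 with upper-quartile scaling, 0.13 with library size alone (edgeR adjusted p = 0.00874), 0.0063 and 0.0061 with no and a stricter filter, 0.0085 with only these groups, 0.0412 with the muscle covariate, and on leaving out loaded replicate 1 (0.0187), empty replicate 3 (0.0109), untreated replicate 2 (0.0341) or untreated replicate 3 (0.0079), in a range of -0.0499 to 0.0341 over the 9 libraries left out. Library size alone gave 0.0236 for Clock in empty against untreated and 0.0227 for Nr1d2 in loaded against empty skin, and Nr1d2 was at 0.0022 and 0.0105 there without loaded replicate 2 and empty replicate 1, in a range of -0.0473 to 0.0105. Called members that were lower numbered 1 in loaded against untreated skin with library size alone, where 3973 of 26081 genes were lower. With the muscle covariate 1 was higher and 0 were lower in loaded against empty skin, by edgeR, where that model called 1650 of 26081 genes and the one without the covariate 10805. Leaving out each library gave 1 to 3 members higher there, the lowest without empty replicate 3. The difference between the phases ran from -0.0335 to 0.0116, 0.2874 to 0.3425 and -0.3501 to -0.2951 on leaving out each library, for loaded against untreated, empty against untreated and loaded against empty skin. Without Cry1 it was -0.0603, 0.4018 and -0.4621 in the same order, and with the median of the members 0.2828, 0.4044 and -0.1216. Without Nr1d1 and Dbp, an alternative chosen after seeing the data, it was -0.0926 and -0.4294 for the first and the third. Same-numbered libraries did not deviate together (correlations of -0.10 to 0.096). That shows no strong effect shared by replicate number but cannot show whether the numbers mark pairs, which the labels do not say. With the replicate number as a block 4 members were higher and 3 lower in loaded and in empty against untreated skin. Between the devices 3 were higher and 5 lower with the block. These counts were the same without the block. The lowest count of a measured member in a library was 264; with 3 libraries a group, the calls of Cry1 and Dbp in loaded against empty skin and of Npas2 in loaded against untreated skin turned on single libraries.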
